A study of Mus musculus with 4 samples.

Results

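A set of 10 genes of the Notch pathway was followed across cultured mouse mammary cells: the receptors Notch1, Notch2, Notch3 and Notch4, the ligands Jag1, Jag2 and Dll1, and the targets Hes1, Hey1 and Heyl. They were picked by gene symbol, all 10 were found, and they are 10 of the 54446 genes in the expression table. Mammary gland cells of wild type C57BL/6 mice had been sorted as basal or luminal and grown as 3D cultures in Matrigel. The cultures were kept with DMSO as the control, or with 100 μM baicalin, a flavonoid of medicinal skullcap. Each combination of label and treatment has 1 library, 4 libraries in all, so no difference below has a replicate check and no p-value is given.

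Notch receptors are cut after they bind a Jagged or Delta ligand on a neighbouring cell. The freed intracellular domain enters the nucleus, joins the DNA-binding protein Rbpj and its Mastermind partners, and switches on genes of transcriptional repressors of the Hes and Hey families. In the mammary gland the pathway is known for its part in the choice between basal and luminal cell fate.

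Levels are in FPKM, which divides a gene's fragments by its exon length and by the depth of the library, so they can be compared between genes. Between 19356109 and 20648788 fragments lay behind a library, and 1 fragment on 1 kb of exon was worth between 0.0484 and 0.0517 FPKM. Ratios are ratios of FPKM with 95% exact Clopper-Pearson intervals from the fragments, which cover counting error only. A gene is said to have risen or fallen where log2 of the FPKM with 1 FPKM added differed by more than 1 between the libraries compared, and this quantity is called the log2 difference. The background is the 17787 genes detected in every library (FPKM over 0), which include all 10 Notch genes.

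The sorted labels were first set against cell type markers, and the main basal and luminal lists went against them. All 10 basal and myoepithelial markers, among them the keratin Krt5 and the smooth muscle actin Acta2, were higher in the libraries labelled luminal under both treatments, and 0 of 10 luminal markers were. The summed FPKM of the basal markers was 1761 and 479 in the libraries labelled basal with DMSO and baicalin, and 5404 and 7199 in those labelled luminal. The summed FPKM of the luminal markers was 4413, 3060, 1271 and 1075 in the same order. A list of 5 hormone-sensing luminal markers mostly went with the labels under DMSO, where 4 of 5 were higher in the library labelled luminal. Among these were Foxa1, at 1.80 FPKM with basal DMSO and 9.30 with luminal DMSO, and Pgr at 1.08 and 4.81. Prlr went the other way, at 6.50 and 2.40. With baicalin 2 of 5 were higher in the library labelled luminal. The summed FPKM of this list was 10.4, 5.01, 25.3 and 5.17. The 4 luminal progenitor markers summed to 264, 150.1, 69.9 and 175 FPKM, mostly from Aldh1a3 at 173, 97.8, 46.4 and 163. Of these 4 markers, 0 were higher in the library labelled luminal with DMSO and 1 with baicalin. The 5 fibroblast markers summed to 5.53, 2.31, 9.63 and 7.81, where Pdgfra alone was at 6.30 with luminal DMSO. Of these 5, 1 was higher in the library labelled luminal with DMSO and 5 with baicalin. The libraries are therefore called by their labels throughout, and not by a cell type. In such bulk RNA, a change in the share of a cell type and a change in RNA per cell cannot be told apart.

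Baicalin went with a drop of the target Hey1 under both labels, while Jag1, the most abundant ligand in every library, was lower with baicalin under the basal label and rose under the luminal label. Jag2 fell under the basal label, and Notch1 to Notch3 stayed within 1.41-fold of their DMSO level. Between the labels, all 3 ligands were higher in the libraries labelled luminal under both treatments.

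**Figure D1:**
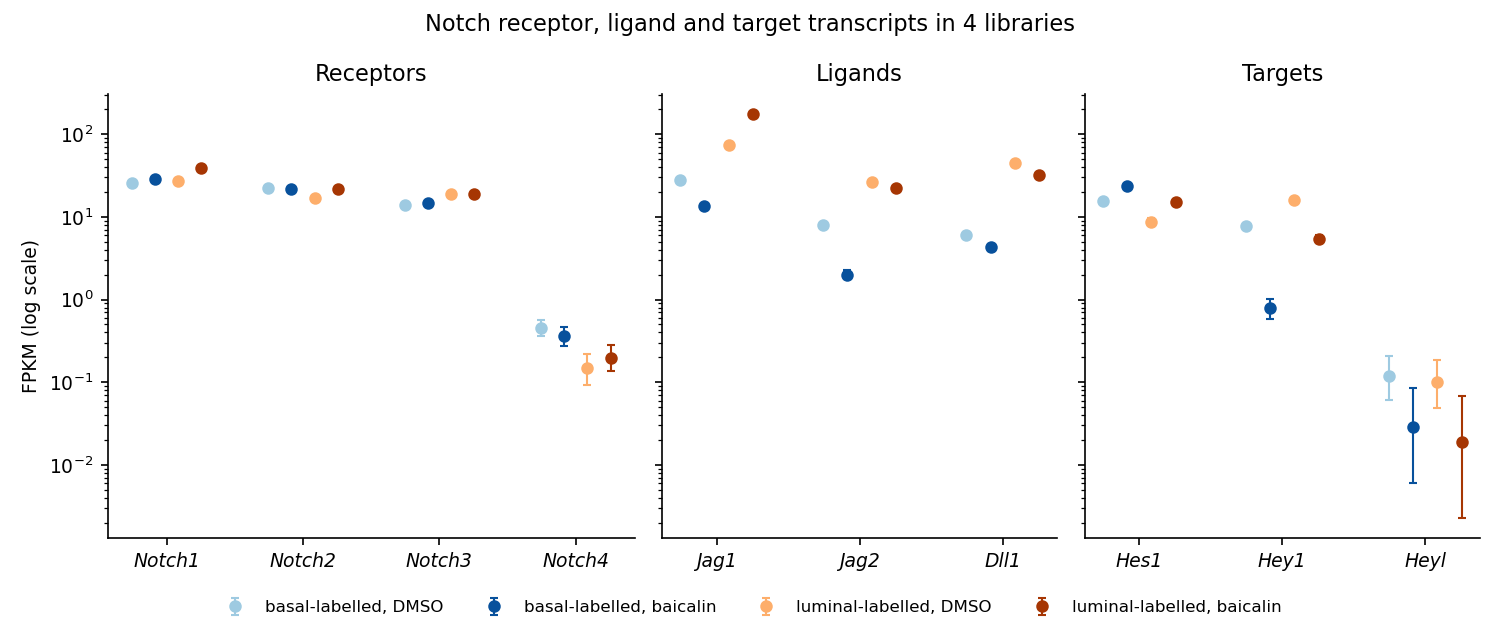
FPKM of the 10 Notch genes in each of the 4 libraries on a log axis, 1 point per library with its 95% counting interval where this is larger than the point. Jag1 spans 13.7 to 175 FPKM, while Notch1, Notch2 and Notch3 stay between 13.9 and 38.6 FPKM.

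The receptors are transmembrane proteins that share a layout of EGF-like repeats outside the cell and ankyrin repeats inside it. Notch1 (ENSMUSG00000026923, GRCm38 chromosome 2, 26457903 to 26516663) was at 25.5 FPKM in the library labelled basal with DMSO, 28.8 with baicalin, 27.4 in that labelled luminal with DMSO and 38.6 with baicalin. The first 3 libraries were close together and the last stood highest. The ratio of baicalin to DMSO was 1.13 (1.09 to 1.16) under the basal label and 1.41 (1.36 to 1.45) under the luminal label.

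Notch2 (ENSMUSG00000027878, chromosome 3, 98013527 to 98150361), which is widely expressed, was at 22.6, 21.6, 17.1 and 21.9 FPKM in the same order of libraries. The luminal DMSO library was the low one. With baicalin its ratio was 0.956 (0.918 to 0.995) under the basal label and 1.27 (1.22 to 1.33) under the luminal label. Notch3 (ENSMUSG00000038146, chromosome 17, 32120820 to 32166852), best known from the smooth muscle and pericytes of vessels, was at 13.9, 14.7, 19.2 and 18.8 FPKM. The labels differed more than the treatments: the ratio of luminal to basal was 1.38 (1.31 to 1.46) with DMSO and 1.28 (1.21 to 1.35) with baicalin, against 1.06 (1.001 to 1.12) and 0.982 (0.934 to 1.03) for baicalin under the basal and the luminal label. The small luminal difference changed sign when the comparison was centred on the median gene. For Notch3 the annotated exon length did not give whole fragments, so its fragments were rounded. The 5 other pericyte markers summed to 0.922, 0.840, 1.54 and 1.91 FPKM, higher in the libraries labelled luminal as Notch3 was, and their part was not tested.

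Notch4 (ENSMUSG00000015468, chromosome 17, 34564268 to 34588503), known from endothelium, was the scarcest receptor at 0.456, 0.361, 0.147 and 0.198 FPKM, from 73, 59, 23 and 33 fragments. It was lower in the libraries labelled luminal, with ratios of 0.323 (0.193 to 0.523) with DMSO and 0.549 (0.348 to 0.855) with baicalin. Both baicalin intervals held 1, at 0.791 (0.552 to 1.13) and 1.34 (0.766 to 2.40). The summed FPKM of 8 endothelial markers ran the other way across the labels, at 1.06, 1.52, 3.56 and 4.19, and the highest single value among them was 1.61. The sort used antibodies to CD31, an endothelial marker, and CD45, a blood cell marker, and 5 immune markers summed to at most 0.370 FPKM.

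The ligands sit on the sending cell. Jag1 (ENSMUSG00000027276, chromosome 2, 137081456 to 137116644) was at 28.0 FPKM in the library labelled basal with DMSO and 13.7 with baicalin, against 74.1 in that labelled luminal with DMSO and 175 with baicalin. The 4 libraries do not overlap in their counting intervals, and they rank in the same order as the summed basal markers, a sum that rests mostly on keratins. Of the 10 basal markers, 5 were lower with baicalin under the luminal label, where Jag1 was higher, among them Acta2 at 555 and 417 FPKM and Tagln at 97.6 and 47.2. The part of these markers in the result was not tested. Under the basal label the ratio was 0.489 (0.460 to 0.519), a log2 difference of -0.98 that lies just short of the threshold. Under the luminal label it was 2.36 (2.30 to 2.42), a log2 difference of 1.23, so Jag1 rose there.

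Jag2 (ENSMUSG00000002799, chromosome 12, 112907819 to 112929776), the other Jagged ligand, was at 8.01, 2.01, 26.7 and 22.1 FPKM. It fell under the basal label, where it was 3.99-fold lower with baicalin and its log2 difference was -1.58. Under the luminal label the ratio was 0.828 (0.790 to 0.869). Dll1 (ENSMUSG00000014773, chromosome 17, 15367354 to 15376872), a Delta ligand known from mammary basal cells, was at 6.01, 4.30, 45.4 and 31.9 FPKM. Its baicalin ratio was close under both labels, at 0.716 (0.624 to 0.821) and 0.704 (0.670 to 0.739). The opposite-strand gene A930024N18Rik shares 20.5% of the exon bases of Dll1 but was at most 0.209 FPKM, and it is not known whether strand was used in counting.

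Summed over Jag1, Jag2 and Dll1, ligand RNA was 42.0, 19.98, 146 and 229 FPKM. Jag1 made up 66.6%, 68.4%, 50.7% and 76.4% of it. Receptor RNA was steadier, at 62.4, 65.4, 63.9 and 79.4 FPKM.

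The ligand promoters are shown because all 3 ligands were past the threshold between the labels. The 250 bases before each start are from RefSeq (GRCm38.p6), on the minus strand of chromosomes 2, 12 and 17, written 5′ to 3′. Dll1 has 2 starts, listed by coordinate, so on the minus strand its second start lies upstream of its first. Capitals mark CACGCG or its reverse complement CGCGTG, letters bound by Hes and Hey repressors.
Jag1, chr2:137116521-137116770: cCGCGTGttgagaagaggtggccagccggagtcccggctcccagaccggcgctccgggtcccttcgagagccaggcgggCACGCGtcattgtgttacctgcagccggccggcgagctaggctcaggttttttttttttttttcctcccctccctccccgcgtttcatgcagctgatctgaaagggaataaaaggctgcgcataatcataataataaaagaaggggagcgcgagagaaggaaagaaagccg
Jag2, chr12:112929496-112929745: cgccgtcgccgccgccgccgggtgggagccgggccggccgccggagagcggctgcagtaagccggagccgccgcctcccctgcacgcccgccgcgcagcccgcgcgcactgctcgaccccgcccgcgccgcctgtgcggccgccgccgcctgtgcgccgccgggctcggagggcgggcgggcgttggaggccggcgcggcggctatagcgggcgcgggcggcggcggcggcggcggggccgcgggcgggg
Dll1, first start, chr17:15375824-15376073: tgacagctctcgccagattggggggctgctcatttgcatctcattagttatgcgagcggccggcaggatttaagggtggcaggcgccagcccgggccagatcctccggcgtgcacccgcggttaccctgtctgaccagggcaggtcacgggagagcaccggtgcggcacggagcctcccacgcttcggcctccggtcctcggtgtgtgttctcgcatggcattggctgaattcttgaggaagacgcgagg
Dll1, second start, chr17:15376933-15377182: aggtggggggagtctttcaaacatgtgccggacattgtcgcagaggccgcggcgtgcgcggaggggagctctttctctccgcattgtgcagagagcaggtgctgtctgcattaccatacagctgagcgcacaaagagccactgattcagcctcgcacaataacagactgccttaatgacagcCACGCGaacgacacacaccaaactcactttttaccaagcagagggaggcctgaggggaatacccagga
Over the whole 300-base windows, which add 50 bases from the start on, CACGCG on either strand was found in 4 of 8 windows of 7 Notch genes and in 9.33% of 32544 windows of all genes. In Jag1 it lay 249 and 171 bases before the start, in Dll1 68 before the second start, in Notch2 42 before the start, and in Jag2 at base 19 from the start on. The 8 upstream windows were 56.0% to 87.2% G and C, against a median of 52.4% over all windows. The Rbpj letters GTGGGAA, their core TGGGAA and the E-box CACGTG were in 0 of the 8 windows, against 6.39%, 25.4% and 7.17% of all. The targets Hes1, Hey1 and Heyl had no window, so their promoters were not searched. A match describes letters only.

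The targets are repressors that Notch switches on. Hes1 (ENSMUSG00000022528, chromosome 16, 30064384 to 30067796) was at 15.4, 23.4, 8.78 and 15.3 FPKM. It was higher with baicalin under both labels, with ratios of 1.52 (1.37 to 1.69) and 1.74 (1.52 to 1.99), and lower in the libraries labelled luminal, at 0.571 (0.499 to 0.652) of the basal level with DMSO and 0.652 (0.589 to 0.721) with baicalin. None of these differences passed the threshold.

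Hey1 (ENSMUSG00000040289, chromosome 3, 8663359 to 8667256) went the other way. It was at 7.81 FPKM in the library labelled basal with DMSO and 0.785 with baicalin, and at 15.8 and 5.44 in those labelled luminal, from 506, 52, 999 and 367 fragments. Hey1 fell under both labels, 9.94-fold lower with a log2 difference of -2.30 under the basal label and 2.90-fold lower with a log2 difference of -1.38 under the luminal label. Baicalin libraries were below the DMSO library of the same label, and the lowest of the 4 was the basal one with baicalin. Of the hormone-sensing luminal markers, 4 of 5 were lower with baicalin under the basal and 5 of 5 under the luminal label. Under the basal label Esr1 hardly differed, at 0.992 FPKM with DMSO and 0.982 with baicalin. In the same order of labels, basal markers were lower in 9 of 10 and 5 of 10. Luminal markers were lower in 7 of 10 and 8 of 10, and luminal progenitor markers in 4 of 4 and 3 of 4. Endothelial markers were lower in 2 of 8 and 1 of 8, fibroblast markers in 4 of 5 and 1 of 5. Pericyte markers, Notch3 among them, were lower in 3 of 6 and 2 of 6. Over all background genes, 49.1% and 54.4% were below 0 in log2 difference. The part of these markers in the fall of Hey1 was not tested.

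Heyl (ENSMUSG00000032744, chromosome 4, 123233556 to 123249875) was near the floor at 0.118, 0.0289, 0.101 and 0.0189 FPKM, from 12, 3, 10 and 2 fragments. Its baicalin ratios were 0.245 (0.0443 to 0.907) and 0.187 (0.01997 to 0.880). Within the 3 targets, Hes1 made up 66.0% of the summed FPKM of the library labelled basal with DMSO and 96.6% with baicalin, and 35.6% and 73.6% of those labelled luminal.

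**Figure D2:**
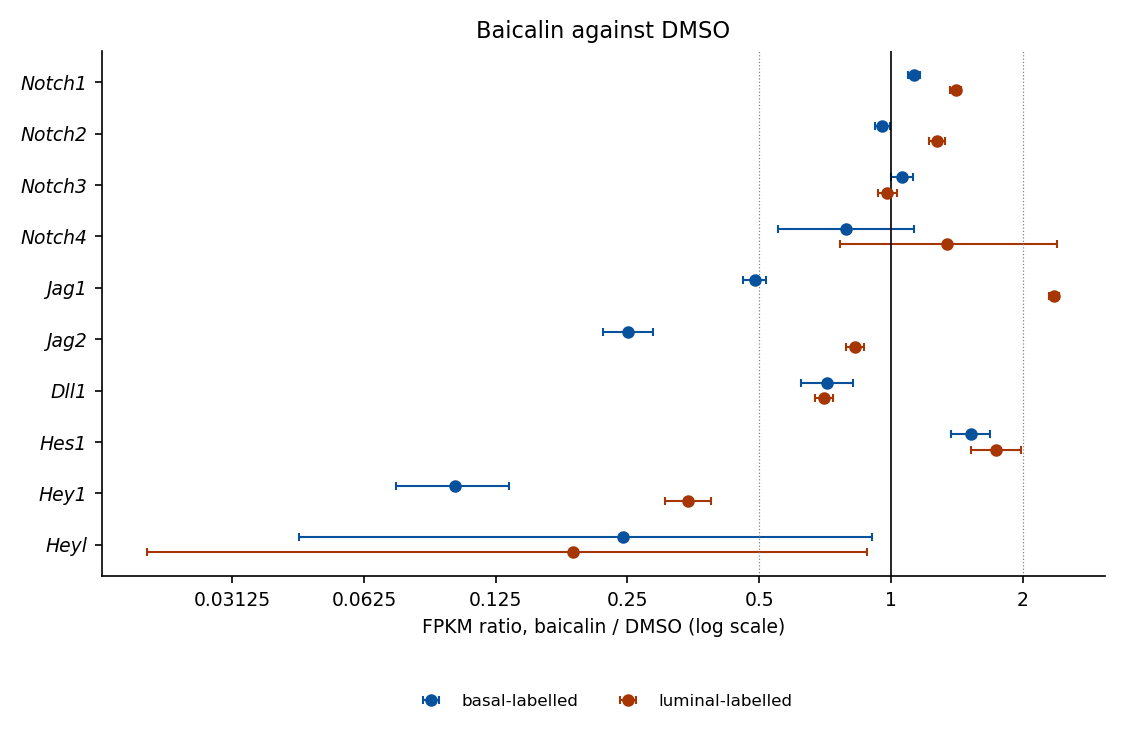
Ratio of baicalin to DMSO FPKM of the 10 Notch genes under each label on a log axis, with 95% counting intervals. Hey1 lies below 1 under both labels, and Jag1 lies at 0.489 under the basal and 2.36 under the luminal label.

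In count, 2 of the 10 genes fell with baicalin under the basal label, Jag2 and Hey1, and 0 rose, against 3.33% fallen and 2.15% risen of the 17787 background genes, 5.48% in either direction. Under the luminal label 1 rose, Jag1, and 1 fell, Hey1, against 2.37% and 1.59%, or 3.95% in either direction. The median log2 difference was -0.11 over the 10 genes under the basal label and 0.02 under the luminal label, against 0.01 and -0.02 over all genes. Each comparison between the labels below uses the same libraries again, so it is not independent of these.

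Between the labels with DMSO, 3 of the 10 genes were higher by more than the threshold in the library labelled luminal, the 3 ligands, and 0 were lower, against 4.71% and 3.86% of all genes, 8.56% in either direction. The ratios of luminal to basal were 2.65 (2.54 to 2.76) for Jag1, 3.33 (3.11 to 3.56) for Jag2 and 7.56 (6.89 to 8.32) for Dll1. Hey1 was at 2.03 (1.82 to 2.26) with DMSO, a log2 difference of 0.93 just short of the threshold. With baicalin 4 were higher, Jag1, Jag2, Dll1 and Hey1, and 0 lower, against 5.24% and 2.99%, 8.23% in either direction. The ratios were then 12.8 (12.2 to 13.5) for Jag1, 11.0 (9.73 to 12.4) for Jag2, 7.43 (6.66 to 8.30) for Dll1 and 6.93 (5.17 to 9.46) for Hey1. Notch1 differed little with DMSO, at 1.07 (1.04 to 1.11), and changed sign when FPKM were rescaled to TPM. Basal markers were higher in the same libraries, and their part in these ratios was not tested.

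**Figure D3:**
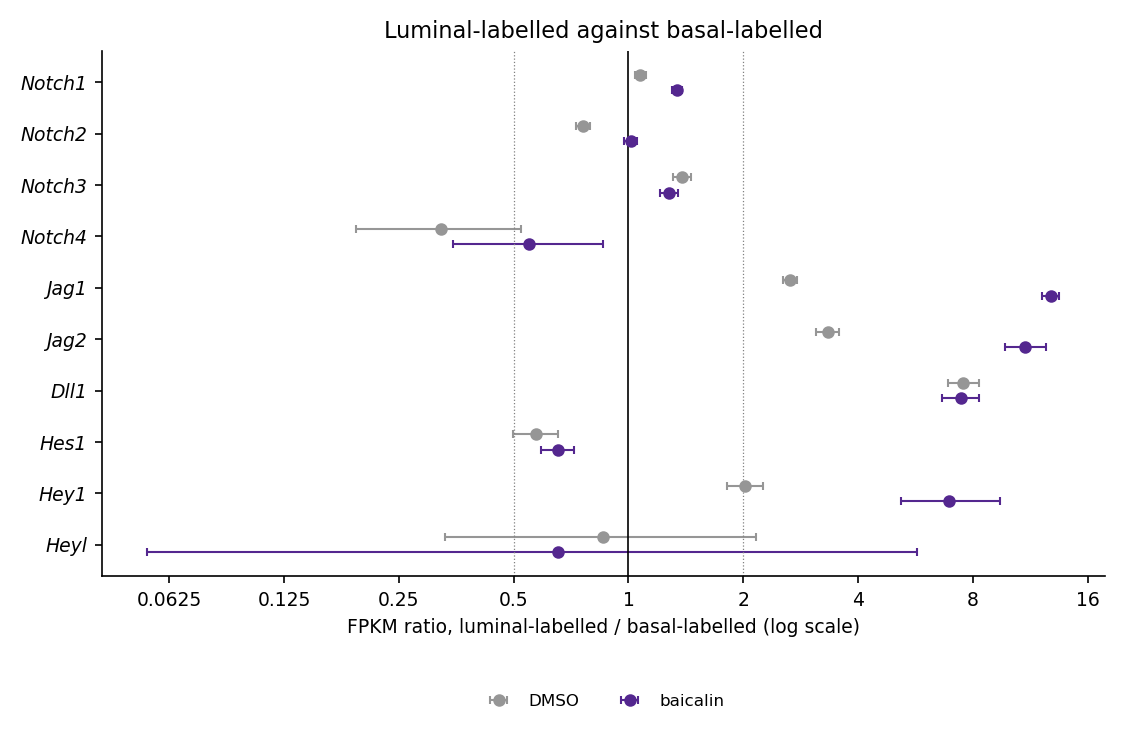
Ratio of the library labelled luminal to that labelled basal in FPKM for each Notch gene, under DMSO and under baicalin, on a log axis with 95% counting intervals. Jag1, Jag2 and Dll1 are above 1 under both treatments, and Notch4 and Hes1 are below 1.

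The baicalin ratio under the luminal label divided by that under the basal label was 4.84 (4.53 to 5.16) for Jag1, 3.30 (2.87 to 3.79) for Jag2 and 3.42 (2.50 to 4.76) for Hey1. For Dll1 it was 0.982 (0.851 to 1.13) and for Hes1 1.14 (0.966 to 1.35), intervals that hold 1. The intervals of Notch1, at 1.25 (1.19 to 1.30), and Notch2, at 1.33 (1.26 to 1.41), lay above 1. That of Notch3, at 0.925 (0.857 to 0.999), lay just below it, and those of Notch4, at 1.70 (0.862 to 3.38), and Heyl, at 0.766 (0.0543 to 8.22), held 1. With 1 library per condition, the difference was not tested between samples.

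By level, Jag1 led in the library labelled basal with DMSO, followed by Notch1 and Notch2, while with baicalin Notch1 led and Jag1 did not differ from Notch3 beyond their counting intervals. In the libraries labelled luminal Jag1 led under both treatments. Heyl was the lowest in every library, although with luminal DMSO its interval overlapped that of Notch4.

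A wider list of 57 Notch pathway genes was read beside the 10, of which 53 were in the background. Under the basal label 1 rose and 3 fell with baicalin, 4 of 53 against the 5.48% of all genes given above, a share near the background. The risen gene was Mib2, a ubiquitin ligase for ligand uptake, at 4.86, 11.4, 6.23 and 7.36 FPKM in the order of libraries above. The fallen ones were Lfng, a Fringe glycosyltransferase that modifies Notch receptors, at 10.5, 4.19, 7.28 and 4.72, Nrarp, a Notch feedback inhibitor, at 9.52, 4.03, 17.5 and 16.8, and Dtx3l, a Deltex family ubiquitin ligase, at 17.9, 6.34, 5.41 and 5.10. Under the luminal label 0 of 53 passed the threshold in either direction, against 3.95% of all genes. The median log2 differences were -0.05 under the basal and -0.06 under the luminal label, against 0.01 and -0.02 over all genes. Under the luminal label the largest differences short of it were Neurl1b, a ligase of ligand uptake, at a ratio of 0.383 (0.293 to 0.497), and the corepressor Tle4 at 0.476 (0.385 to 0.586) below DMSO, with Neurl1a, the related ligase, at 2.21 (1.73 to 2.83) and Dtx2 at 1.42 (1.21 to 1.66) above it. Dtx3 was at 1.74 (1.605 to 1.89) with baicalin under the basal label, short of the threshold. The fragments of Tle4 and Neurl1a, and of Dtx4 below, did not come out whole and were rounded like those of Notch3.

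All 11 corepressors on the list had a log2 difference below 0 with baicalin under the luminal label, between -0.67 and -0.01. When centred on the median gene it was 8 of 11, against 47.1% of all genes so centred. Under the basal label 9 of 11 had one below 0. Over all genes, uncentred, 54.4% under the luminal and 49.1% under the basal label were below 0. The intervals of Spen, Ctbp1 and Ctbp2 held 1 under the luminal label, at 0.987 (0.947 to 1.03), 0.9745 (0.924 to 1.03) and 0.996 (0.911 to 1.09). Of 10 proteases that process the receptors, 8 and 7 had one above 0 under the luminal and the basal label, the latter 6 in TPM, against 45.6% and 50.9% of all genes. None of these corepressors or proteases passed the threshold, and no rule set beforehand picked these classes from the list. Receptor regulators and nuclear complex genes were each 3 above and 6 below 0 under the luminal label, and 4 and 5 under the basal label. Glycosyltransferases were 1 and 4, then 2 and 3. Ligand ubiquitin ligases were 2 and 2, then 1 and 3. The further ligands were 1 and 1, then 2 and 0. Further targets were 1 and 2 under both labels. Between the labels with DMSO, Maml2, a Mastermind coactivator, and the corepressor Tle1 were higher by more than the threshold in the library labelled luminal and Dtx3l was lower, 3 of 53 against 8.56% of all genes, at ratios of 2.57 (2.32 to 2.86), 2.17 (2.02 to 2.32) and 0.301 (0.274 to 0.330). The acetyltransferase Kat2b was at 16.6, 11.9, 9.999 and 9.11 FPKM. With baicalin Nrarp and Tle1 were higher, 2 of 53 against 8.23% of all genes, at 4.18 (3.59 to 4.88) and 3.11 (2.86 to 3.38), and Dtx4 was at 1.71, 3.57, 1.34 and 1.49 FPKM.

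**Figure D4:**
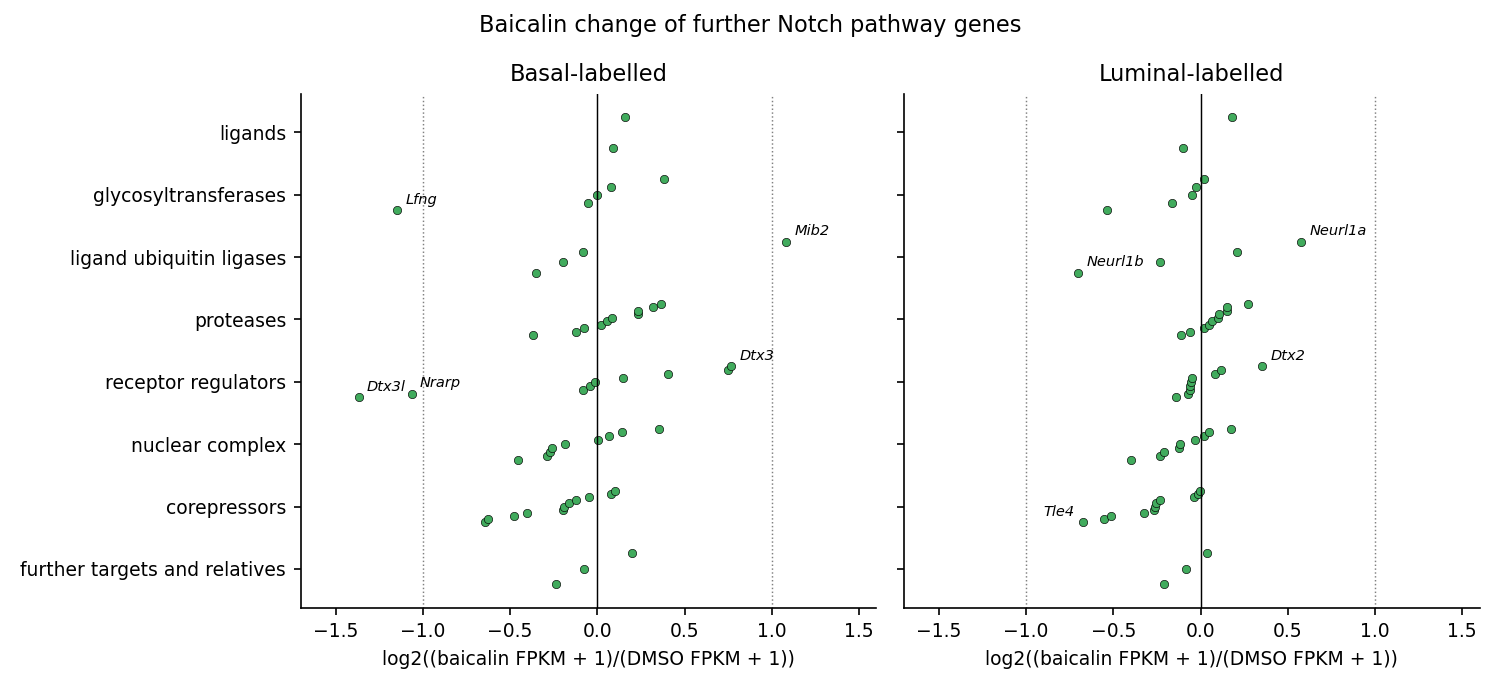
Log2 difference of baicalin against DMSO, with 1 FPKM added, for the 53 wider pathway genes by class and label. Lfng, Nrarp and Dtx3l are below -1 and Mib2 above 1 under the basal label, and no gene passes either line under the luminal label.

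For the member of each role with the highest mean FPKM over the 4 libraries, Notch1, Jag1 and Hes1, the genes with the most similar pattern over the 4 libraries were named among 8762 genes by the Euclidean distance of centred log2 values. Those of Notch1 were Cpeb2 at 0.0313, Mir27a at 0.0534 and Txnrd3 at 0.0544. Those of Jag1 were Serpinb2 at 0.203, Casq2 at 0.247 and Fbn1 at 0.363, and those of Hes1 were Hax1 at 0.0293, Nfe2l1 at 0.0468 and Tmeff1 at 0.0801. In the luminal DMSO library Hey1, not Hes1, was the highest target. With 4 libraries such distances are a description. They do not weigh counting error, also not for the microRNA gene Mir27a, at 3.47, 3.97, 3.56 and 5.57 FPKM.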

How the data were processed

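RNA was enriched with oligo (dT) beads, made into stranded libraries and sequenced by the authors from 4 samples, 1 library per condition. By the study's methods reads were aligned with HISAT2 to GRCm38 and counted per gene with featureCounts on Ensembl release 94. The submitters' processing notes name Bowtie 0.12.2 and the builds GRCm38 and mm8. The authors deposited the values as FPKM. Whether featureCounts used strand is not given in the sources used here.

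The Notch genes, the wider pathway list and the markers were chosen with earlier results of these data known. Named genes were all 10 members, and from the wider list each gene past the threshold with baicalin and the 2 largest differences per direction and comparison at 1 FPKM or more in a library. FPKM times the exon length of GENCODE mouse release 21 fell on steps of 1 fragment (98.7% to 98.9% of low genes within 0.1), which gave fragments and intervals. Intervals of a ratio of ratios were exact up to 4000 fragments over the 4 libraries and normal on the log scale above. The log2 difference used a pseudocount of 1 FPKM and a threshold of 1. Scripts ran in Python 3.11.15 with pandas 2.3.3 and scipy 1.17.1 and were tested on simulated data. Alternatives were pseudocounts, filters, TPM and centring on the median. No sample was left out.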

Additional observations from a re-analysis of the deposited data

Results flagged for a closer look

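In 4 of the 10 genes the baicalin difference had opposite signs under the 2 labels, as it had in 40.6% of the 17787 background genes, each resting on 1 library per condition, so the difference between labels was not tested. The luminal minus the basal log2 difference was 2.21 for Jag1, 0.40 for Notch2, -0.10 for Notch3 and 0.16 for Notch4. Notch3 changed sign under the luminal label when centred on the median, and both baicalin intervals of Notch4 held 1.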

How the results depend on the processing

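No paired analysis was possible because each condition has 1 library, and no replicate could be left out. Counts past the threshold moved by over 1.5 times under a smaller pseudocount or TPM, and the cause was not tested. Of the 10 Notch genes, 2 passed with baicalin under the basal label and 4 without a pseudocount, and between the labels with DMSO 3 passed, 5 with a pseudocount of 0.1 and 5 without. Of the wider list, 4 passed with baicalin under the basal label and 9 without a pseudocount, and under the luminal label 0 passed, 3 with a pseudocount of 0.1, 5 without and 1 in TPM. Between the labels it was 3 with DMSO, 7 and 11 with 0.1 and without, and 2 with baicalin, 7, 7 and 4 with 0.1, without and in TPM. The share of all genes past the threshold grew too. With 0.1 and without a pseudocount it was 13.6% and 22.3% for baicalin under the basal label, 11.0% and 20.8% under the luminal label, 19.6% and 28.6% between the labels with DMSO, and 18.9% and 27.6% with baicalin, and in TPM 9.55%, 7.29%, 14.5% and 14.2%. TPM shifted the labels with DMSO by -0.11 on the log2 scale. No result changed direction past the threshold. Jag1 under the basal label ranged from -1.05 to -0.98, and past -1 it fell with a pseudocount of 0.1, without one, and in TPM. Smaller differences changed sign for Notch3 with baicalin under the luminal label and for Heyl between the labels (centring), and for Notch1 with DMSO and Notch2 with baicalin between the labels (TPM). Depth limits Heyl, with at most 12 fragments, and Notch4.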

Other observations

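Of the wider list, Dll4, a Delta ligand known from endothelium, was at 0.17, 0.243, 0.402 and 0.591 FPKM in the libraries labelled basal with DMSO and baicalin and luminal with DMSO and baicalin, from 13, 19, 30 and 47 fragments. The ratio of luminal to basal was 2.37 (1.20 to 4.94) with DMSO and 2.43 (1.40 to 4.38) with baicalin. Both baicalin intervals of Dll4 held 1, at 1.43 (0.670 to 3.15) under the basal and 1.47 (0.910 to 2.40) under the luminal label. The summed endothelial markers ranked in the same order of libraries as Dll4, and their part in it was not tested. Dtx1, a Deltex gene singled out after its values were seen, was listed at 0 in both libraries labelled basal, and at 0.147 and 0.0368 FPKM in those labelled luminal, from 15 and 4 fragments.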
